A study of Mus musculus with 20 samples.

Results

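Tox, Tox2, Tox3, Tox4, Myt1, Myt1l and St18 belong to 2 small families of DNA-binding proteins, and their levels were followed in mouse sympathetic ganglia, MYCN-driven tumors and sphere cultures. The genes were taken by family name, and within these families Tox3 and St18 were chosen by their measured intensities, which were high in the tumors, so their values in tumors and ganglia are given as a description with no test. They were tested only in tumorspheres against neurospheres, a comparison without tumor or ganglion arrays. The choice was made with earlier results of these data known. Tumorspheres were also close to the tumors of hemizygous mice, with log2 differences of 0.15 for Tox3 and 0.06 for St18. The sphere tests of both genes are therefore not independent of the choice. Of the 45037 probe sets on the array that are not controls, 17 carry the symbol of 1 of these 7 genes alone, 8 for the Tox family and 9 for the Myt1 family. A filter on dim probe sets, which asked for an intensity above the 40th percentile of the array on at least 2 arrays, was passed by 15 of the 17. Of those that failed it, 1 belonged to Tox2 (1457757_at) and 1 to Myt1l (1460111_at), and each gene kept at least 1 probe set that passed.

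The proteins of the Tox family share a single HMG box, a fold that binds and bends DNA by shape more than by sequence. Tox itself is known from the thymus, where developing T cells need it, and from chronically stimulated T cells. Tox2 acts in T follicular helper cells and natural killer cells, Tox3 takes part in calcium-dependent transcription in neurons, and Tox4 belongs to a nuclear complex with protein phosphatase 1. The proteins of the Myt1 family carry repeated zinc fingers of a type that binds the core letters AAAGTT. Myt1 acts in neuronal and endocrine progenitors, Myt1l is found in neurons and represses programs of other cell types, and St18 was described both in endocrine cells and in neurons. MYCN is a transcription factor that binds E-boxes, and its gene is amplified in part of human neuroblastomas, tumors of the sympathetic lineage. Mdk encodes midkine, a secreted growth factor.

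The 20 arrays fell into 7 groups. Wild-type 129+Ter/SvJcl mice gave 4 ganglion samples and 2 neurosphere cultures. All other groups carried the MYCN transgene on a mixed 129+Ter/SvJcl background. They were 2 ganglion samples and 4 tumors from homozygous transgenic mice, 2 tumors from homozygous mice that also had a knockout of Mdk, and 4 tumors and 2 tumorsphere cultures from hemizygous mice. The labels give neither the ages of the mice nor the promoter of the transgene. Nor do they say that each array had its own mouse or culture, so a p-value here reflects array-to-array spread within groups, part of which may be technical. Values are probe set intensities as deposited, whose mean after trimming 2% at each end is 100 on every array. Differences and tests are on the scale log2(intensity + 16), which understates the change of dim probe sets, and come from 1 limma fit over all 20 arrays. Adjusted p-values cover the 34924 probe sets that passed the filter, with a threshold of 0.05. Each gene is represented by its brightest probe set over the 20 arrays, and intensities are compared between groups for the same probe set only.

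The promoter windows of 3 genes that were higher together in the tumors are shown first, since the groups differ in a factor that binds E-boxes and Myt1 family proteins bind a short core. They run from 250 bases before to 50 bases after the transcription start and come from RefSeq on build GRCm38.p6. Capitals mark matches on either strand to the general E-box CANNTG, where N is any base, and to AAAGTT, whose reverse complement is AACTTT. The Tox3 window lies at chr8:90348203-90348502 on the minus strand, the Tox4 window at chr14:52278896-52279195 on the plus strand, and the Myt1 window, the first of 3 for that gene, at chr2:181763082-181763381 on the plus strand.
Tox3 promoter: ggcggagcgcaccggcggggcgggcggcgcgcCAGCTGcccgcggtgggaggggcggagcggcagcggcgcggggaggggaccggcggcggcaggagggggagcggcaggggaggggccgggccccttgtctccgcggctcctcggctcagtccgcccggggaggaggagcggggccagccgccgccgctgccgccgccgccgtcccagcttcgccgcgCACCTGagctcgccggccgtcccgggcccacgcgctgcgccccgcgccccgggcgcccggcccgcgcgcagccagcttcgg
Tox4 promoter: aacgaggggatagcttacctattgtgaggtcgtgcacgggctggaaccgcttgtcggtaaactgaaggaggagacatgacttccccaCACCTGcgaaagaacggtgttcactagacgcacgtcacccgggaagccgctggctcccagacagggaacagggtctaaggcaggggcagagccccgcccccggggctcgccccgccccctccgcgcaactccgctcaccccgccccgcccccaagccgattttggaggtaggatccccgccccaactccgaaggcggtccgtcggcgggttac
Myt1 promoter, window 1: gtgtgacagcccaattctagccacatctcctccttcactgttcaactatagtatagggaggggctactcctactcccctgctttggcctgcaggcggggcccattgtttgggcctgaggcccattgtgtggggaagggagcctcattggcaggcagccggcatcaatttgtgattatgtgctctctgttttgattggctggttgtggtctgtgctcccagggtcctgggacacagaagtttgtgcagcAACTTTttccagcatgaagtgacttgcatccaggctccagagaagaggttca
RefSeq windows were found for 5 of the 7 genes, 15 in all, with 5 for Tox2, 1 for Tox3, 1 for Tox4, 3 for Myt1 and 5 for Myt1l. The E-box that MYC proteins prefer, CACGTG, was in 0 of the 15 windows, and 7.15% of 32841 windows of all genes hold it. CANNTG, which includes CACGTG, was in 12 of the 15, against 72.3% of all windows. The Myt1 window shown has no CANNTG, and windows 2 and 3 of that gene hold 2 and 1. Windows can overlap: windows 4 and 5 of Tox2, which start at 163225203 and 163225204, hold the same match. AAAGTT was in 2 of the 15, against 14.1% of all windows, and both belong to Myt1. The letters of the Tox3 window were 85.3% G or C, where the median of all windows was 52.7%. These matches describe the letters of the windows only.

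The tissue labels were set against marker genes. Th, the first enzyme of catecholamine synthesis, was between 1046 and 3193 in ganglia, between 171 and 1770 in tumors and between 3097 and 3328 in tumorspheres, but between 9.72 and 14.1 in neurospheres. Dbh, which makes noradrenaline, was between 1133 and 2885 in ganglia, 89.8 and 507 in tumors, 54.1 and 79.7 in tumorspheres and 7.79 and 29.1 in neurospheres. In neurospheres the 5 markers of oligodendrocyte progenitors summed to 5458 to 5528 and the 5 of neural stem cells to 3959 to 4774. Both enzymes were thus lowest in the neurospheres, which held markers of other lineages. All 10 markers of sympathetic neuroblasts lay above the array median in every ganglion, tumor and tumorsphere, against 2 to 3 in neurospheres. They did not move alike. In Mdk knockout tumors against wild-type ganglia Th (-2.87), Dbh (-2.51) and Ddc (-0.68) fell, while Chga (1.65), Gata3 (1.36) and Phox2a (1.31) rose, and the others did not pass. Mdk, the targeted gene, was at 42.6 and 35.5 in the 2 Mdk knockout tumors and between 268 and 297 in the 4 homozygous tumors. Wild-type ganglia 1 and 2 differed from ganglia 3 and 4 in skeletal muscle transcripts, whose 4 markers summed to 3987 and 1850 in the first pair and to 45 and 24 in the second. Neurosphere 2 had the lowest median intensity, 14.8 against 17.2 to 22.9 on the other arrays. Its 3' to 5' ratio of GAPDH, a measure of RNA length, was 11.5 against 2.56 to 4.49 on the others. The same ratio for beta-actin was between 4.36 and 9.14 in wild-type ganglia and between 1.96 and 3.28 in tumors. It was 7.77 and 3.78 in neurospheres and 2.64 and 2.34 in tumorspheres. The part of RNA length in the differences between ganglia and tumors and between the spheres was not tested. Markers of Schwann and satellite glia also differed, with a sum over 6 genes of 9934 to 11137 in wild-type ganglia and 413 to 1079 in tumors, and their part was not tested either. Because the samples are bulk tissue, fewer cells of a type and less RNA per cell cannot be told apart.

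Tox3, the factor of calcium-dependent transcription, had 1 probe set (1436600_at), and its level separated wild-type ganglia from every other group. The 4 wild-type ganglia read 23.4, 22.6, 10.5 and 12.7, between the 30.8th and the 54.4th percentile of their arrays. The homozygous ganglia read 260 and 203. The wild-type ganglia were low on all 4 arrays, and the homozygous ganglia, which are not tumors, lay above all of them. The 4 homozygous tumors read 801, 929, 737 and 801, the Mdk knockout tumors 967 and 682, and the hemizygous tumors 725, 892, 1014 and 1075. The 10 tumors overlapped each other and stood above both kinds of ganglia. On the log2 scale the mean of homozygous tumors was 4.66 above that of wild-type ganglia, hemizygous tumors 4.83 and Mdk knockout tumors 4.66. Homozygous ganglia were 2.91 above wild-type ganglia and 1.75 below homozygous tumors. Against wild-type ganglia 1 and 2 alone the difference of homozygous tumors was 4.41, and against ganglia 3 and 4 alone it was 4.91.

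Tox3 was also found in both kinds of spheres. Neurospheres read 565 and 288 and tumorspheres 933 and 1119. The neurospheres lay above every ganglion and below every tumorsphere. Tumorspheres were higher than neurospheres by 1.30 log2 units (SE 0.29, adjusted p = 0.002), and the difference was between 0.84 and 1.77 when any 1 of the 4 sphere arrays was left out, with the call kept each time. In increasing order of the mean on the log2 scale, the groups were wild-type ganglia, homozygous ganglia, neurospheres, Mdk knockout tumors, homozygous tumors, hemizygous tumors and tumorspheres. Gaps without overlap followed each of the first 3, and each of the last 4 overlapped its neighbour.

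Tox, the T cell factor, had 3 probe sets, and the brightest (1425484_at) did not separate tumors from ganglia. Wild-type ganglia read 86.1, 45.6, 166 and 152, and homozygous ganglia 112 and 89. Homozygous tumors read 225, 199, 81.1 and 132, Mdk knockout tumors 164 and 127, and hemizygous tumors 83.4, 147, 268 and 228. Each of these groups overlapped the wild-type ganglia. Homozygous tumors differed from wild-type ganglia by 0.49 log2 units (SE 0.38, adjusted p = 0.31) and hemizygous tumors by 0.64 (SE 0.38, adjusted p = 0.18). The dimmest Tox probe set (1425483_at) passed in both comparisons, with 0.61 (SE 0.23, adjusted p = 0.034) and 0.87 (SE 0.23, adjusted p = 0.0042), while the remaining 1 (1442039_at) passed in neither. The probe sets of Tox therefore disagree on whether tumors differ from wild-type ganglia.

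The sign for Tox against wild-type ganglia depended on which ganglia were used. In homozygous tumors it was 1.06 against ganglia 1 and 2 alone and -0.08 against ganglia 3 and 4 alone, neither of which passed. Hemizygous tumors were at 1.21 (adjusted p = 0.027) against the first pair and at 0.07 against the second. With only the arrays numbered 1 and 2 in both groups, homozygous tumors were higher by 1.52 (adjusted p = 0.0071), and with only those numbered 3 and 4 the value was -0.54 (adjusted p = 0.23). In the spheres the difference was clearer. Neurospheres read 66.2 and 16.8 and tumorspheres 238 and 164, without overlap. Tumorspheres were higher by 2.04 log2 units (SE 0.54, adjusted p = 0.007), and the other 2 probe sets were also higher, by 1.40 and 1.24. The call for the brightest probe set was lost without neurosphere 2 (1.38, adjusted p = 0.1) and without tumorsphere 1 (1.80, adjusted p = 0.068).

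Markers of T and natural killer cells were dim wherever Tox was measured. Of the 12 such markers on the array, between 1 and 3 lay above the median of an array, and their summed intensity was between 97 and 346 over all 20 arrays. It was between 216 and 346 in wild-type ganglia, 148 and 187 in homozygous tumors, 202 and 295 in hemizygous tumors, 97 and 143 in neurospheres and 113 and 181 in tumorspheres. Cd3d, Cd3e and Cd3g, which encode chains of the T cell receptor complex, were between 0.137 and 12.7 on all arrays. Cd8a, another T cell marker, rose in tumorspheres against neurospheres (1.40, SE 0.45, adjusted p = 0.022). In that comparison Cd5 (-0.37), Zap70 (0.14) and Il7r (0.00) did not pass. The part of T cells in the level of Tox was not tested. Of 6 genes that act with Tox in lymphocytes, 1 rose and 4 fell in homozygous tumors against wild-type ganglia, where 49.9% of all genes passed, with Nr4a1 at -1.38 (adjusted p = 2.9e-05) and Nfatc2 at -1.99 (adjusted p = 1.1e-04). In tumorspheres against neurospheres, where 37.8% of all genes passed, 1 rose, Nr4a1 by 1.13 (adjusted p = 0.0066), and 1 fell, Nfatc1 by 1.78 on the log2 scale (adjusted p = 2.3e-04).

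Tox2, the member of follicular helper and natural killer cells, was the member that was lower in hemizygous tumors. Its brightest probe set (1440156_s_at) may match several transcripts by its name. The other (1457757_at) failed the filter, with intensities from 1.19 to 24.2. Wild-type ganglia read 428, 240, 1895 and 1970, and homozygous ganglia 381 and 570. Ganglia 3 and 4 stood far above ganglia 1 and 2, which lay near the homozygous ganglia. Homozygous tumors read 967, 332, 716 and 514 and Mdk knockout tumors 243 and 739, within the range of the wild-type ganglia. Hemizygous tumors read 83.9, 118, 106 and 26.2, below every array of the ganglia and of the homozygous and Mdk knockout tumors.

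Tox2 was lower in hemizygous tumors than in wild-type ganglia by a log2 change of -3.15 (SE 0.56, adjusted p = 1.2e-04) and than in homozygous tumors by -2.73 (SE 0.56, adjusted p = 0.0072). The first call held in all 22 alternatives, which ranged from -4.76 to -1.54, and the second in all 20, from -3.12 to -2.20. The other comparisons with wild-type ganglia did not pass. Homozygous tumors were at -0.43 (SE 0.56, adjusted p = 0.56), and their sign rested on the ganglia, with 0.84 (adjusted p = 0.16) against ganglia 1 and 2 alone and -1.69 (adjusted p = 0.0051) against ganglia 3 and 4 alone. Mdk knockout tumors gave -0.87 with all ganglia, 0.39 against the first pair and -2.14 (adjusted p = 0.0032) against the second. The muscle markers separate the same pairs of ganglia, and their part in this was not tested. Among hemizygous tumors the muscle markers summed to between 38 and 5592.

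Neurospheres read 1737 and 1144 for Tox2 and tumorspheres 203 and 215. The neurospheres were within the range of wild-type ganglia, and the tumorspheres lay between hemizygous tumors and all other groups without overlap. Tumorspheres were lower than neurospheres by -2.66 log2 units (SE 0.79, adjusted p = 0.014), a call that was kept without neurosphere 2 but lost without neurosphere 1 (-2.36, adjusted p = 0.1), tumorsphere 1 (-2.62, adjusted p = 0.068) or tumorsphere 2 (-2.70, adjusted p = 0.061). Tumorspheres were at 1.31 against hemizygous tumors (SE 0.68, adjusted p = 0.28), although those arrays did not overlap.

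Tox4, the phosphatase-binding member, was higher in all 3 kinds of tumor than in wild-type ganglia. Wild-type ganglia read 148, 118, 73.9 and 90.4, and homozygous ganglia 150 and 104. Homozygous tumors read 226, 190, 182 and 158, Mdk knockout tumors 220 and 196, and hemizygous tumors 153, 174, 215 and 203. Every tumor lay above every ganglion, although the lowest tumor, at 153, was close to the highest ganglion, at 150. Tox4 (1416574_at) was higher than in wild-type ganglia by 0.76 log2 units in homozygous tumors (SE 0.19, adjusted p = 0.0026). In hemizygous tumors the value was 0.74 with SE 0.19 (adjusted p = 0.0031), and in Mdk knockout tumors it was 0.89 with SE 0.23 (adjusted p = 0.0049). Against ganglia 1 and 2 alone the first 2 values were 0.46 (adjusted p = 0.058) and 0.43 (adjusted p = 0.07), and without Mdk knockout tumor 1 the third was 0.82 (adjusted p = 0.07). The second probe set (1436049_at) gave 0.33, 0.34 and 0.13 and did not pass.

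In spheres, Tox4 read 87.8 and 103 in neurospheres and 218 and 253 in tumorspheres. The groups did not overlap, and tumorspheres were higher by 1.17 (SE 0.26, adjusted p = 0.002), with 0.62 (SE 0.20, adjusted p = 0.025) for the second probe set. Of the 5 partners of Tox4 in the phosphatase complex, 4 rose in homozygous tumors against wild-type ganglia and none fell, where 49.9% of all genes passed in either direction. They included Ppp1r10, the targeting subunit (0.72, SE 0.17, adjusted p = 0.0016), and Wdr82, a WD repeat protein of the complex (1.01, SE 0.19, adjusted p = 2.5e-04). In tumorspheres against neurospheres, where 37.8% of all genes passed, 2 rose and 1 fell, namely Wdr82 by 1.09 (adjusted p = 0.0041) and the catalytic subunit Ppp1ca by 1.62 (adjusted p = 0.017), with Ppp1cb at -1.54 (adjusted p = 0.004). CREB, encoded by Creb1, is the calcium-responsive factor with which Tox3 works. Of 4 genes on its side, Creb1 included, 3 rose in homozygous tumors and 0 fell, with Cited2 at 1.58 (adjusted p = 2.8e-06) and Creb1 at 1.07 (adjusted p = 7.1e-04). In tumorspheres against neurospheres 2 of these 4 rose and 2 fell, with Cited2 at 3.02 (adjusted p = 1.4e-07), Cited1 at 0.93 (adjusted p = 0.017), Creb1 at -1.11 (adjusted p = 0.012) and Crebbp at -1.70 (adjusted p = 0.031). The same shares of all genes apply to these counts.

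**Figure D1:**
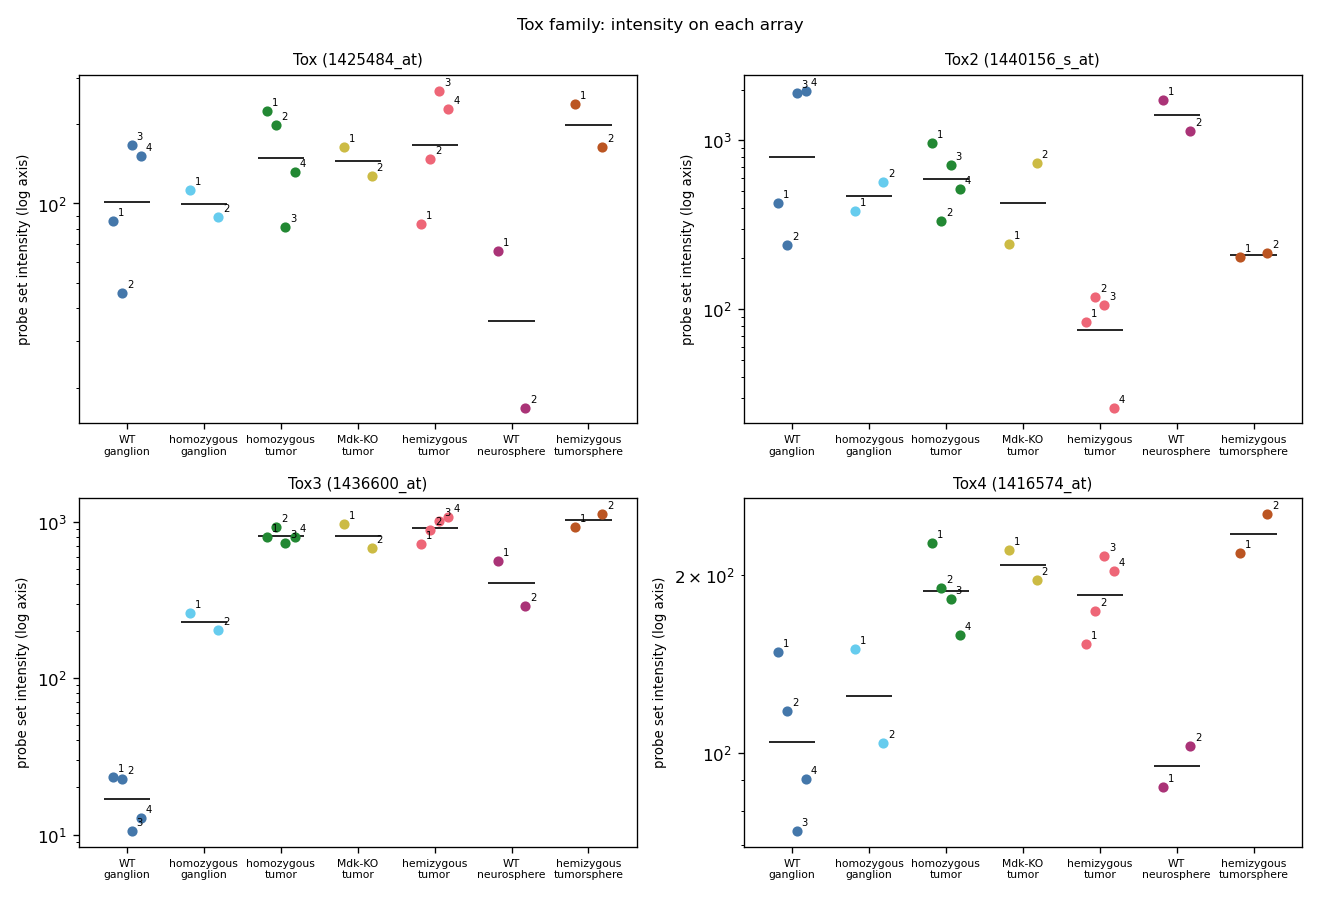
Intensity of the brightest probe set of Tox, Tox2, Tox3 and Tox4 (log axis) on each of the 20 arrays, by group, with the replicate number beside each point. Bars are group means taken on the log2(intensity + 16) scale. Tox3 sits between 10.5 and 23.4 in wild-type ganglia and between 682 and 1075 in tumors, while Tox2 is lowest in hemizygous tumors, between 26.2 and 118.

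Myt1, the factor of neuronal and endocrine progenitors, was higher in all transgenic groups than in wild-type ganglia. Wild-type ganglia read 56.8, 46.6, 141 and 72.4 (1422773_at), and homozygous ganglia 262 and 185. Homozygous tumors read 484, 478, 348 and 301, Mdk knockout tumors 487 and 474, and hemizygous tumors 203, 190, 255 and 249. No transgenic sample fell to the level of a wild-type ganglion. The hemizygous tumors overlapped the homozygous ganglia and lay below all tumors of homozygous mice.

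Against wild-type ganglia Myt1 rose by 2.20 log2 units in homozygous tumors (SE 0.29, adjusted p = 6.2e-06), by 2.48 in Mdk knockout tumors (SE 0.36, adjusted p = 3.1e-05) and by 1.42 in hemizygous tumors (SE 0.29, adjusted p = 5.4e-04). These 3 calls held in every alternative that kept this probe set. Homozygous ganglia were higher by 1.41 (SE 0.36, adjusted p = 0.03), but this call was lost without wild-type ganglion 4 (1.40, adjusted p = 0.058), without homozygous ganglion 1 (1.18, adjusted p = 0.46) and without homozygous ganglion 2 (1.64, adjusted p = 0.089). The second Myt1 probe set (1439365_at), dimmer, gave 0.87 (adjusted p = 0.002), 1.12 (adjusted p = 0.0022), 0.38 (adjusted p = 0.14) and 0.41 (adjusted p = 0.38) for the same 4 groups in that order. Hemizygous tumors were at -0.78 against homozygous tumors (SE 0.29, adjusted p = 0.14). Although these 8 arrays did not overlap, the value passed only in the fit restricted to those 2 groups (adjusted p = 0.021), and it was -1.22 with the arrays numbered 1 and 2 and -0.34 with those numbered 3 and 4.

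The 2 probe sets of Myt1 disagreed in the spheres. The brighter one read 391 and 123 in neurospheres and 378 and 330 in tumorspheres, which overlapped, with a difference of 0.64 (SE 0.42, adjusted p = 0.27). That difference was 1.41 (adjusted p = 0.019) without neurosphere 1 and -0.14 (adjusted p = 0.84) without neurosphere 2. The dimmer one read 68.6 and 49.3 in neurospheres and 21.5 and 13.1 in tumorspheres, a change of -1.17 (SE 0.30, adjusted p = 0.0049). Both probe sets were higher in neurospheres than in wild-type ganglia, with 1.42 for the brighter (SE 0.36, adjusted p = 0.0047) and 1.65 for the dimmer one (SE 0.26, adjusted p = 5.4e-05). Without neurosphere 1 the first of these was 0.64 (adjusted p = 0.22). The part of the markers of oligodendrocyte progenitors and neural stem cells, which were high in the same neurospheres, was not tested.

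Myt1l, the neuronal member, was high in every sympathetic tissue and low in the neurospheres. Wild-type ganglia read 245, 149, 354 and 291 (1436483_at), and homozygous ganglia 307 and 262. Homozygous tumors read 413, 463, 455 and 458, Mdk knockout tumors 397 and 422, and hemizygous tumors 328, 372, 405 and 325. The tumors of homozygous mice lay above all ganglia, while hemizygous tumors overlapped the wild-type ganglia. Homozygous tumors were higher than wild-type ganglia by 0.81 (SE 0.27, adjusted p = 0.018), a call lost without wild-type ganglion 2 (0.58, adjusted p = 0.07) and against ganglia 3 and 4 alone (0.46, adjusted p = 0.19). Hemizygous tumors gave 0.49 (SE 0.27, adjusted p = 0.14) and Mdk knockout tumors 0.68 (SE 0.33, adjusted p = 0.11). Against ganglia 1 and 2 alone these passed, at 0.84 (adjusted p = 0.028) and 1.03 (adjusted p = 0.026).

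A pair of other Myt1l probe sets gave larger values against wild-type ganglia. For 1421175_at the change was 1.24 in homozygous tumors (SE 0.32, adjusted p = 0.0036), 0.93 in hemizygous tumors (SE 0.32, adjusted p = 0.023) and 1.37 in Mdk knockout tumors (SE 0.39, adjusted p = 0.011). For 1430599_at it was 1.59 (adjusted p = 2.5e-05), 1.30 (adjusted p = 1.9e-04) and 1.42 (adjusted p = 9.6e-04). The dimmest that was tested (1429738_at) gave 0.50, 0.30 and 0.16. None of the last 3 values passed.

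Neurospheres read 73.4 and 13.7 for Myt1l and tumorspheres 416 and 549. All neurosphere values were below all others, and tumorspheres overlapped the tumors. Tumorspheres were higher by 3.26 (SE 0.38, adjusted p = 2.3e-06), and the other 3 probe sets tested rose by 3.35, 1.79 and 1.27. Neurospheres were below wild-type ganglia by a log2 change of -2.36 (SE 0.33, adjusted p = 1.4e-05). The difference of tumorspheres from neurospheres exceeded that of hemizygous tumors from wild-type ganglia by 2.77 (SE 0.46, adjusted p = 1.7e-04). Of the 5 members tested for this difference of differences, Myt1l was the 1 that passed, where 32.1% of the brightest probe sets of all genes passed in either direction. The summed intensity of 10 markers of differentiated neurons was also lowest in neurospheres, at 657 and 1249, against 9453 and 10012 in tumorspheres. Among the tissues it did not follow Myt1l. The sum was 13068 to 27556 in wild-type ganglia and 6420 to 10128 in hemizygous tumors, where mean Myt1l was 260 and 357. The part of these markers was not tested.

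St18, the third member of the Myt1 family, separated hemizygous tumors from all other tissues. Wild-type ganglia read 5.83, 12.2, 25 and 9.56 (1455123_at), and homozygous ganglia 22.1 and 19. Homozygous tumors read 46.9, 76, 183 and 246 and Mdk knockout tumors 262 and 37. Hemizygous tumors read 863, 1086, 1338 and 1266. Ganglia were near the floor of the array, tumors of homozygous mice were intermediate and varied over a wide range, and hemizygous tumors stood above all of them. On the log2 scale, homozygous tumors were 2.22 above wild-type ganglia, Mdk knockout tumors 2.10 and hemizygous tumors 5.33. Homozygous ganglia were 0.37 above wild-type ganglia. Hemizygous tumors were 3.11 above homozygous tumors, and the second probe set (1436793_at) gave 2.24 for the same pair. Against wild-type ganglia that probe set was at 0.42 in homozygous tumors and at 2.66 in hemizygous tumors.

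Neurospheres read 21.2 and 7.89 for St18 and tumorspheres 1301 and 1048. The neurospheres were as low as ganglia and the tumorspheres as high as hemizygous tumors. Tumorspheres were higher than neurospheres by 5.31 (SE 0.61, adjusted p = 2.2e-06), and the second probe set, at 9.39 and 5.32 against 240 and 222, gave 3.41 (SE 0.36, adjusted p = 8.0e-07). With each sphere array left out in turn the first value was between 4.99 and 5.63. In increasing order of the mean on the log2 scale, the groups were wild-type ganglia, neurospheres, homozygous ganglia, Mdk knockout tumors, homozygous tumors, hemizygous tumors and tumorspheres. The order had gaps without overlap after homozygous ganglia and after homozygous tumors. Within homozygous tumors the highest St18 array was 5.25 times the lowest, and within hemizygous tumors 1.55 times.

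**Figure D2:**
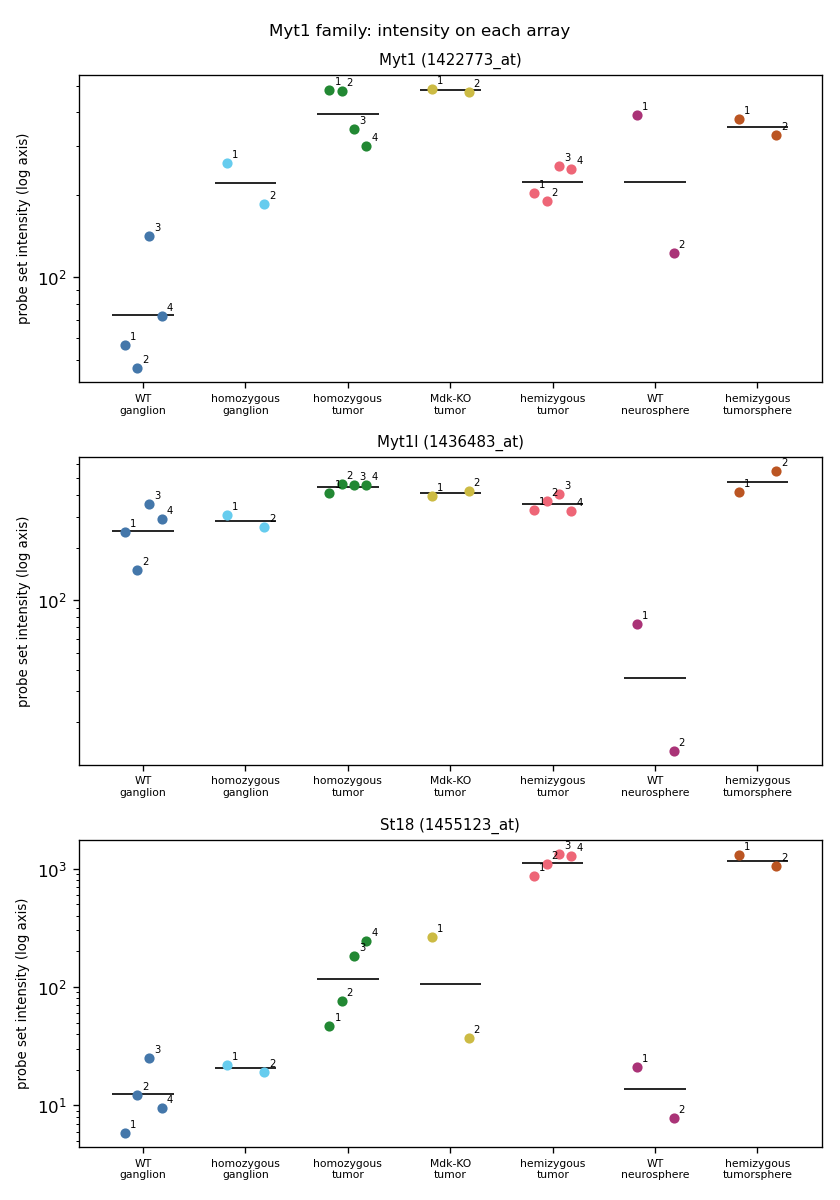
Intensity of the brightest probe set of Myt1, Myt1l and St18 (log axis) on each of the 20 arrays, by group, with the replicate number beside each point and bars at group means taken on the log2(intensity + 16) scale. St18 lies between 863 and 1338 in hemizygous tumors and between 37 and 262 in the tumors of homozygous mice, and Myt1l is lowest in neurospheres, at 13.7 and 73.4.

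Counted over the genes that were tested, homozygous tumors differed from wild-type ganglia in 3 of 5, all higher, namely Tox4, Myt1 and Myt1l. Among the brightest probe sets of all 15140 genes tested, 49.9% passed in either direction, so passing was common. Hemizygous tumors differed in 3 of 5, with Tox4 and Myt1 higher and Tox2 lower, against 52.4% of all genes. Mdk knockout tumors differed in 2 of 5, Tox4 and Myt1, against 39.3%. Homozygous ganglia differed in 1 of 5, Myt1, against 5.03%. The median log2 change over the 5 genes was 0.76 in homozygous, 0.64 in hemizygous and 0.68 in Mdk knockout tumors, where the medians over all genes were -0.12, -0.05 and -0.11. These comparisons share the wild-type ganglia, and in each of them transgene and strain background cannot be told apart.

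Comparisons among the transgenic tissues gave few calls in the 5 tested genes, and these counts are not far from the shares of all genes. Tox3 and St18, described without a test, were 1.75 and 1.85 higher in homozygous tumors than in homozygous ganglia. They were at 0.17 and 3.11 in hemizygous against homozygous tumors, and at -0.00 and -0.12 in Mdk knockout against homozygous tumors. Between homozygous tumors and homozygous ganglia 0 of 5 passed in limma, with 2 of 5 at an unadjusted p under 0.05, and 21.3% of all genes passed. The values were 0.53 for Tox4 (SE 0.23, adjusted p = 0.11), 0.80 for Myt1 (SE 0.36, adjusted p = 0.13) and 0.63 for Myt1l (SE 0.33, adjusted p = 0.19), and each had all 4 tumors above both ganglia. In a fit of those 6 arrays alone all 3 of these genes passed. A share of all genes is given neither for that fit nor for that separation of arrays. Neither can therefore be read as particular to these genes. Between Mdk knockout and homozygous tumors 0 of 5 passed, 0 of 5 had an unadjusted p under 0.05, and 0.00661% of all genes passed. The 95% confidence intervals of this difference ran from -0.34 to 0.62 for Tox4, from -0.48 to 1.03 for Myt1, from -0.80 to 0.56 for Myt1l, from -1.03 to 0.94 for Tox and from -1.88 to 0.98 for Tox2, which leaves room for changes of that size. Between hemizygous and homozygous tumors 1 of 5 passed, Tox2, against 5.97% of all genes.

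Most members differed between the kinds of sphere. Between tumorspheres and neurospheres 6 of 7 passed, with Tox, Tox3, Tox4, Myt1l and St18 higher and Tox2 lower, against 37.8% of all genes. The exception was Myt1. Tox3 and St18 are part of this count, which is therefore not independent of their choice as high in tumors. Between tumorspheres and hemizygous tumors 0 of 5 passed, 0 of 5 had an unadjusted p under 0.05, and 11.8% of all genes passed. The interval of that difference was -0.76 to 1.21 for Tox, -0.12 to 2.73 for Tox2, -0.16 to 0.80 for Tox4, -0.12 to 1.38 for Myt1 and -0.27 to 1.09 for Myt1l. Between neurospheres and wild-type ganglia 2 of 5 passed, Myt1 higher and Myt1l lower, against 38.8% of all genes. Since the spheres also differ in lineage markers and in strain background, transgene, lineage and strain cannot be told apart in the comparison of tumorspheres with neurospheres.

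**Figure D3:**
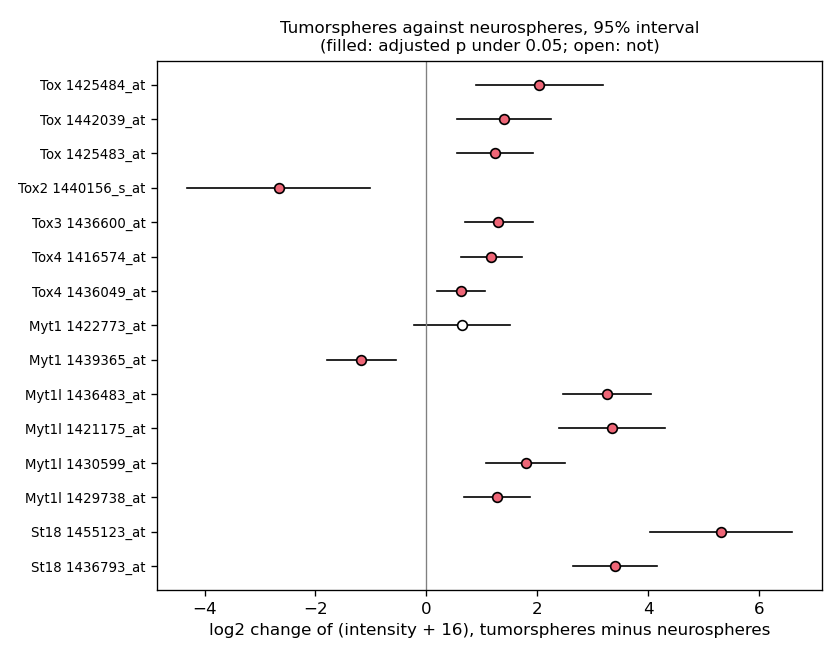
Log2 change between tumorspheres and neurospheres for the 15 probe sets that passed the filter, with 95% confidence intervals. Filled points have an adjusted p under 0.05. The probe sets of Tox, Myt1l and St18 all lie above 0, Tox2 lies at -2.66, and the 2 probe sets of Myt1 fall on opposite sides of 0.

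**Figure D4:**
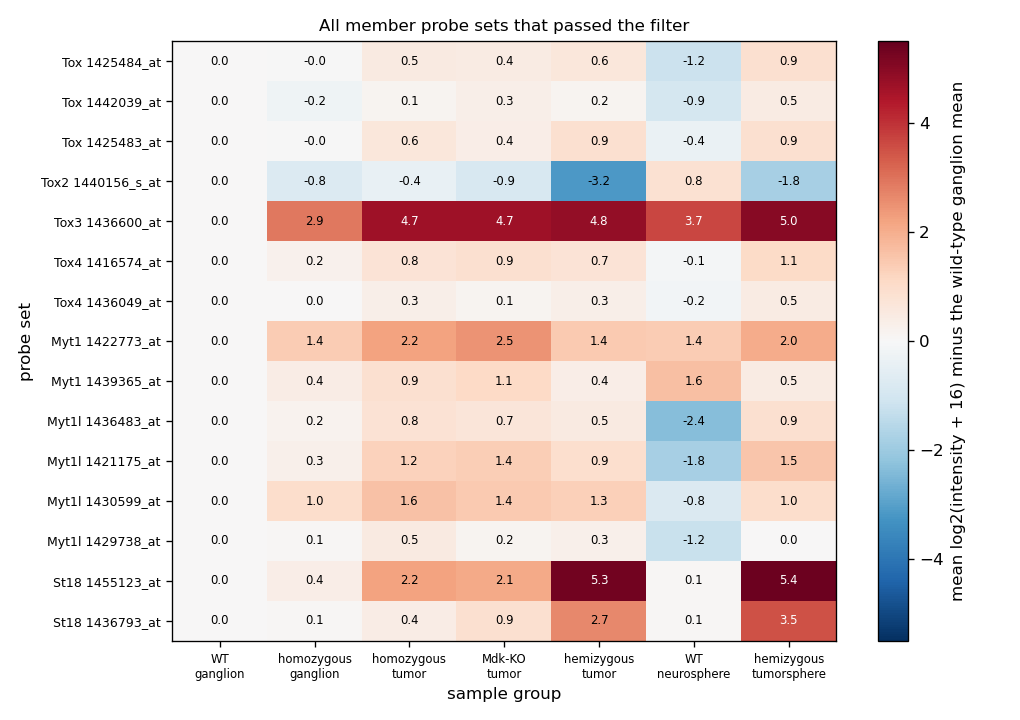
Mean log2(intensity + 16) of each group minus that of wild-type ganglia, for the 15 probe sets that passed the filter (rows) in the 7 groups (columns). Red cells are above and blue cells below wild-type ganglia. The rows of Tox3 and St18 are shown as a description. Outside the tumorsphere column, the largest values are St18 in hemizygous tumors, at 5.33, and Tox3 in the same tumors, at 4.83. Both genes are slightly higher in the tumorsphere column.

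Of the 7 corepressors that Myt1 family proteins recruit, 4 rose in homozygous tumors against wild-type ganglia and none fell, a share near the 49.9% of all genes that passed. Among them were the histone demethylase Kdm1a (1.22, SE 0.16, adjusted p = 3.9e-06), its partner Rcor1 (1.21, SE 0.14, adjusted p = 1.2e-06) and the deacetylase Hdac1 (1.33, SE 0.24, adjusted p = 1.4e-04). The median of the 7 was 0.92, and that of all genes -0.12. In tumorspheres against neurospheres 1 of the 7 passed, Hdac1, which rose by 1.11 (adjusted p = 0.015), where 37.8% of all genes passed.

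Of 8 proneural and endocrine factors tested, 3 rose and 1 fell in homozygous tumors against wild-type ganglia, a share near the 49.9% of all genes. The zinc finger factors Insm1 (5.73, SE 0.20, adjusted p = 2.0e-12) and Insm2 (2.54, SE 0.23, adjusted p = 6.0e-08) and the bHLH factor Neurod1 (3.40, SE 0.36, adjusted p = 3.7e-07) were the 3 that rose. In tumorspheres against neurospheres 2 rose and 2 fell, where 37.8% of all genes passed, with Insm2 at 5.74 (adjusted p = 3.2e-10), the progenitor factor Nkx2-2 at -3.05 (adjusted p = 5.1e-08) and the repressor of neuronal genes Rest at -2.04 (adjusted p = 2.3e-05).

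Of 7 genes of the Notch pathway, which keeps progenitors undifferentiated and is opposed by Myt1 proteins in neural development, 2 rose and 3 fell in homozygous tumors against wild-type ganglia, where 49.9% of all genes passed. The target Hey2 was at -2.28 (SE 0.38, adjusted p = 8.1e-05), the target Hey1 at -1.04 (SE 0.19, adjusted p = 2.2e-04) and the DNA-binding partner Rbpj at 1.47 (SE 0.26, adjusted p = 1.5e-04). In tumorspheres against neurospheres 6 of the 7 fell and none rose, against 37.8% of all genes in either direction. Rbpj, at -0.41 (adjusted p = 0.45), was the exception. The lowest p-values were those of the target Hes5 (-5.49, SE 0.41, adjusted p = 1.0e-08), of Hey1 (-2.68, SE 0.27, adjusted p = 5.4e-07) and of the receptor Notch1 (-3.52, SE 0.38, adjusted p = 1.0e-06). Sox2, a stem cell factor, was lower in the same tumorspheres at -7.55 (adjusted p = 4.1e-12), and the part of the neural stem cell markers in this was not tested.

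Genes whose group means ran most like those of 4 members were taken from 3315 candidates whose means span at least 2 log2 units. The measure was Pearson's r over the 7 group means, given as a description. For Tox3 the 5 nearest were Incenp (0.995), Cdc20 (0.995), H2ax (0.993), Topbp1 (0.993) and Prc1 (0.992). Incenp and Prc1 act in chromosome segregation and cytokinesis, Cdc20 activates the anaphase-promoting complex, and H2ax and Topbp1 act at sites of DNA damage. Cdc20 had a mean intensity of 116 in wild-type ganglia, 971 in homozygous ganglia, 2393 in homozygous tumors and 1628 in neurospheres.

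For St18 the nearest were Ak5, an adenylate kinase (0.992), Syndig1, a synapse protein (0.991), Exosc4 (0.984), Gsg1l (0.983) and Haus5 (0.983). Ak5 had a mean intensity of 29.3 in wild-type ganglia, 72.4 in homozygous tumors, 560 in hemizygous tumors and 390 in tumorspheres. For Myt1 they were Yeats2 (0.976), Elovl2 (0.975), Nol4 (0.969), Ctbp2, a corepressor (0.964), and Creb5 (0.957). For Myt1l they were Ppfia2, a synaptic scaffold protein (0.999), Pnmt, the enzyme that makes adrenaline (0.998), Lyrm9 (0.996), Ina, a neuronal intermediate filament (0.994), and Eef1a2 (0.992). Ppfia2 had means of 218 in wild-type ganglia, 395 in homozygous tumors, 14.5 in neurospheres and 408 in tumorspheres. With 7 means, high coefficients are easily reached, and the means share the arrays.

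The choice of wild-type ganglia moved the members unequally. Myt1 was higher in homozygous tumors against ganglia 1 and 2 alone and against 3 and 4 alone, and in the added comparison of arrays with the same numbers it was 2.88 (adjusted p = 5.6e-05) and 1.53 (adjusted p = 0.0068). Tox4 in the same comparison was 0.59 (adjusted p = 0.039) and 0.93 (adjusted p = 0.003). In hemizygous tumors Tox4 was 0.27 (adjusted p = 0.32) with the arrays numbered 1 and 2 and 1.20 (adjusted p = 4.2e-04) with those numbered 3 and 4. Tox2 in hemizygous tumors was -1.54 (adjusted p = 0.025) and -4.76 (adjusted p = 6.5e-06).

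**Figure D5:**
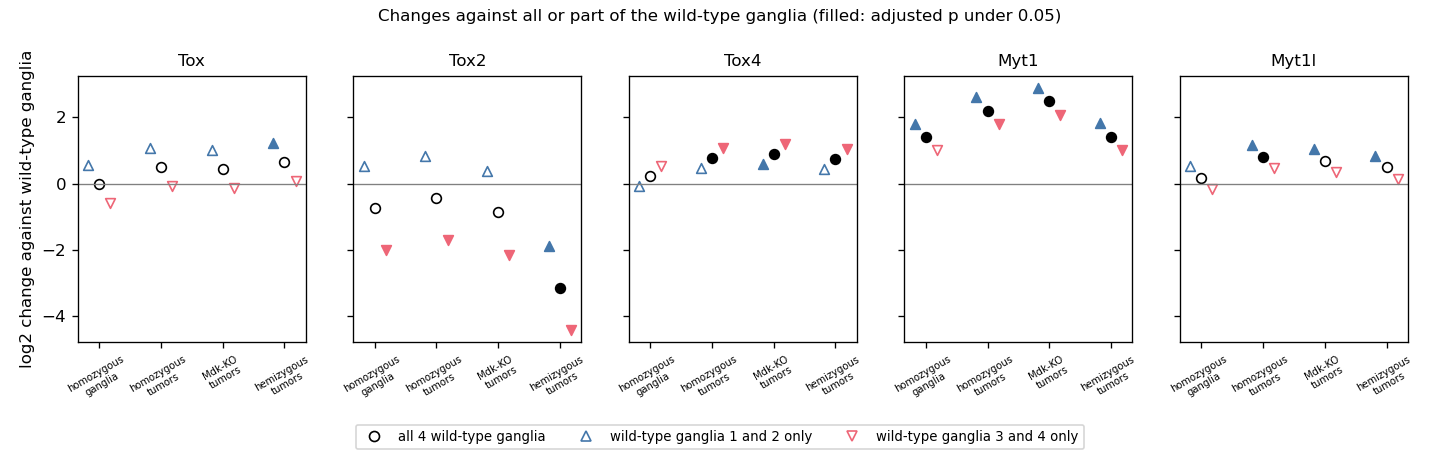
Log2 change of Tox, Tox2, Tox4, Myt1 and Myt1l against all 4 wild-type ganglia (circles), ganglia 1 and 2 alone (triangles up) and ganglia 3 and 4 alone (triangles down), in 4 transgenic groups. Filled symbols have an adjusted p under 0.05. Myt1 stays above 0 throughout, while Tox2 in homozygous tumors moves from 0.84 to -1.69.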

How the data were processed

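RNA of 20 samples was labelled from 40 ng total RNA with a kit that amplifies in 2 cycles, per the labels' protocols, and hybridised to 1-colour Affymetrix mouse arrays. The authors deposited 1 intensity per probe set and array on a linear scale. The mean after trimming 2% at each end is 100 on every array. The sources used here do not name the software that produced these intensities from the probes. Precision is limited by the number of arrays, 2 or 4 a group.

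Probe sets were named through the platform annotation, which can be old. Of 45101, 64 were controls, 34945 carried 1 symbol, 932 several and 9160 none, and only probe sets with 1 symbol were named. The log2(intensity + 16) values were fitted with limma 3.58.1 in R 4.3.3 as 7 group means, with 10 contrasts, two-sided tests and Benjamini-Hochberg adjustment over the 34924 probe sets that passed the filter. The adjusted p threshold was 0.05. No further normalization was applied, since the log2 medians of the arrays spanned 0.33. The fit was tested on simulated data with 100 changed probe sets. For homozygous tumors against wild-type ganglia it recovered 59% of changes of 1 log2 unit and 80% of changes of 2. For tumorspheres against neurospheres it recovered 12% and 62%. The 100 changed probe sets lay among 33112 there, while 11243 were called in the real comparison of the spheres. The adjustment is stricter when few probe sets change, so these rates do not carry over to the real data. Real changes of 1 log2 unit may still go uncalled.

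The members and gene lists were chosen with earlier results of these data known. All members are named. Of each list, genes among the 3 with the lowest p in homozygous tumors against wild-type ganglia and in the sphere comparison are named, and the 5 nearest genes of 4 members by Pearson's r over group means. Sox2 was named after its values were seen, as were list genes beyond these 3. Alternatives covered the pseudocount, scaling, filter, fold threshold, probe set, arrays fitted, replicate block, pairs of ganglia and each array left out.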

Additional observations from a re-analysis of the deposited data

Results flagged for a closer look

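Myt1l in homozygous tumor 1 stood apart from the other 3 homozygous tumors. Its intensity was 413, below values of 455 to 463, so the gap to its nearest neighbour took up most of the range of the group. The 21 sets of 4 arrays examined in this way would give about 1 such case by chance, since chance marks about 1 set in 20.

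Myt1l also differed between settings. The difference of tumorspheres from neurospheres exceeded that of hemizygous tumors from wild-type ganglia by 2.77 log2 units (SE 0.46, limma adjusted p = 1.7e-04). The values were 3.26 in spheres and 0.49 in tissue.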

How the results depend on the processing

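Of 19 calls among 57 results for single members, 11 held under every alternative run on the same probe set. They were Myt1 in all 3 kinds of tumor against wild-type ganglia, and Tox2 in hemizygous tumors against wild-type ganglia and against homozygous tumors. Between the spheres they were Tox3, Tox4, Myt1l and St18. The sphere calls of Tox3 and St18 are not independent of their choice as high in tumors. The rest were Myt1l in neurospheres against wild-type ganglia and in the difference of contrasts. Of 1043 values under alternatives, 957 kept their sign and side of the threshold, 27 lost and 21 gained a call, and 38 changed sign, 0 of them called with all arrays. The comparisons of same-numbered arrays and the alternatives for the difference of contrasts were chosen after seeing the data. The cause of the changes below was not tested, except that fits of fewer arrays have fewer degrees of freedom.

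The larger moves in the count of members called were as follows, and steps such as from 3 to 2 are left out. The share of all genes that passed under each of these settings is not given. The moves can therefore not be read as particular to the members. With a change of at least 1 log2 unit required, the count against wild-type ganglia was 1 in homozygous tumors and 1 in Mdk knockout tumors. With the second brightest probe set, which Tox3 and Tox2 lack among those tested, it was 1 in hemizygous tumors and 0 in homozygous ganglia against wild-type ganglia, and 0 in hemizygous against homozygous tumors. In fits of the compared arrays alone it was 1 in Mdk knockout tumors, 0 in homozygous ganglia and 1 in neurospheres against wild-type ganglia, 3 in homozygous tumors against homozygous ganglia and 2 in hemizygous against homozygous tumors. Pseudocounts of 1 and of 64 each gave 0 in homozygous ganglia. With 1 array left out, the count was 1 to 2 in Mdk knockout tumors, lowest without Mdk knockout tumor 1, and 0 to 1 in homozygous ganglia, lowest without wild-type ganglion 4 or either homozygous ganglion.

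Changes of sign concerned values that did not pass. Against wild-type ganglia 1 and 2 alone, Tox2 was 0.84 in homozygous tumors, 0.39 in Mdk knockout tumors, 0.52 in homozygous ganglia and -0.77 in the difference of contrasts, with Tox at 0.55 and Tox4 at -0.08 in homozygous ganglia. Against ganglia 3 and 4 alone, Tox was -0.08 in homozygous and -0.12 in Mdk knockout tumors, Myt1l -0.17 in homozygous ganglia, and Tox2 -0.45 and Tox4 0.19 in neurospheres. With arrays numbered 1 and 2, Tox2 was 0.79 in homozygous tumors against wild-type ganglia and Tox -0.84 in hemizygous against homozygous tumors. With arrays numbered 3 and 4 these comparisons gave -0.54 for Tox and 0.27 for Tox4. Median centring gave 0.01 for Tox in homozygous ganglia.

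With 1 array left out, ranges across 0 were -0.98 to 0.00 for Tox2 in homozygous tumors against wild-type ganglia. In homozygous ganglia they were -0.33 to 0.19 for Tox, -0.01 to 0.46 for Tox4 and -0.05 to 0.34 for Myt1l. In Mdk knockout against homozygous tumors they were -0.30 to 0.14 for Tox and -1.22 to 0.32 for Tox2, and in hemizygous against homozygous tumors -0.11 to 0.44 for Tox and -0.10 to 0.06 for Tox4. They were -0.14 to 1.41 for Myt1 between the spheres, -0.07 to 0.47 for Tox in tumorspheres against hemizygous tumors, and -0.26 to 0.03 for Tox4 in neurospheres against wild-type ganglia.

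The replicate numbers do not show a pairing, since in 0 of the 3 pairs of groups with at least 3 shared numbers were all correlations above 0.1. The replicate block moved no count of calls, and it turned Tox to 0.19 in homozygous ganglia against wild-type ganglia, and Tox to 0.17 and Myt1l to 0.01 in Mdk knockout against homozygous tumors. Under median centring the share of called genes that were higher in tumorspheres than in hemizygous tumors was 58.0% in place of 42.8%. Dim probe sets, such as those of Tox3 and St18 in wild-type ganglia, limit the size of a difference: with pseudocounts of 1 and 64, Tox3 in homozygous tumors was 5.55 and 3.44 above wild-type ganglia, and St18 in hemizygous tumors 6.48 and 3.95.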
